A study of Mus musculus with 16 samples.

Results

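The genes Gm28439, Gm10222, Gm28438, Gm28437, Gm10925, Gm28661 and Gm29216 lie side by side on mouse chromosome 1 and were taken as a set. They are 7 of the 55450 annotated genes in GENCODE M21, and they were chosen by the high fold enrichment of their peaks in the knockout lists treated with RNase R, so the values of the locus in those lists are given as a description with no test. The knockout lists without RNase R come from the same line, so tests at the locus that use them are not independent of this choice. All peaks that overlapped a member gene by at least 1 bp were taken from the lists, 9 of 77297 peaks in all, and the 11 peaks on the mitochondrial chromosome were set beside them. DNA:RNA hybrid immunoprecipitation sequencing (DRIP-seq) had been carried out on NIH/3T3 cells, which are immortal fibroblasts derived from mouse embryos. Wild-type (WT) cells were compared with a CRISPR-Cas9 knockout (KO) line that lacks Xpo4, which encodes exportin 4, a receptor for export out of the nucleus. Total genomic DNA was cut with 4 restriction enzymes and incubated with RNase R (RNase R+) or mock-treated in buffer (RNase R-), and hybrids were then pulled down with the S9.6 antibody. RNase R digests linear RNA from its end, and circular RNA, which has no end, resists it. The 8 immunoprecipitates, 2 replicates in each of 4 groups, have a peak list each. The labels do not say whether replicates were separate cultures, so the p-values measure only the spread between these samples, and peak lists do not allow a check of the edited gene itself.

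R-loops are structures in which an RNA pairs with one strand of a DNA duplex and leaves the other strand unpaired. The mitochondrial genome (mtDNA) is a small circle that is present in many copies per cell, is transcribed from both strands, and is known for RNA-DNA hybrids near its control region, where transcription and replication start. Pieces of mtDNA have been copied into the nuclear chromosomes during evolution, and such nuclear copies are not expressed as mitochondrial genes are and decay into pseudogenes. A recent copy is nearly identical to mtDNA, and short reads from either place can then match both.

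The 7 genes formed such a copy. A stretch of 4654 bp at chr1:24611535-24616188 (GRCm38) matched positions 6390 to 11042 of the mitochondrial reference on the opposite strand, with 99.9% identity over 4654 alignment columns. The stretch corresponded to 28.5% of the 16299 bp of mtDNA. All 7 genes are annotated as unprocessed pseudogenes on the minus strand, and they follow the order of the mitochondrial genes. Gm29216 (chr1:24615706-24616197) matched 31.3% of mt-Co1, and Gm28661 (chr1:24614885-24615565) matched 99.6% of mt-Co2, both of which encode subunits of cytochrome c oxidase. Gm10925 (chr1:24613974-24614651) matched 99.6% of mt-Atp6, which encodes a subunit of ATP synthase. Gm28437 (chr1:24613189-24613971) matched 99.9% of mt-Co3, a further cytochrome c oxidase gene. Gm28438 (chr1:24612775-24613119), Gm10222 (chr1:24612407-24612700) and Gm28439 (chr1:24611535-24612410) matched 99.1% of mt-Nd3, 99.0% of mt-Nd4l and 63.6% of mt-Nd4, which encode subunits of NADH dehydrogenase. The mitochondrial gene mt-Atp8 also lies in the copied segment, but its counterpart has no annotated gene of its own. Most of this counterpart lies between Gm10925 and Gm28661, and its end overlaps Gm10925.

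Only 2 substitutions and 1 gap separated the chromosome 1 stretch from the mitochondrial reference. They are written with the mitochondrial base first, then the position counted from the first base of the mitochondrial reference, then the base of chromosome 1. A6393T lay 3 bp from the end of the match, T9461C lay in mt-Nd3 and thus in Gm28438, and a run of A in mt-Tr, a transfer RNA gene, had 8 bases in mtDNA and 9 on chromosome 1. These differences are shown because they are the only places inside the stretch at which the 2 reference copies can be told apart. The sequences are from the GRCm38 reference, 5′ to 3′ on the plus strand of mtDNA and the minus strand of chromosome 1, with the differing bases in capitals.
mtDNA around 6393 (chrM:6390-6413): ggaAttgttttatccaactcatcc
Gm29216 (chr1:24616165-24616188): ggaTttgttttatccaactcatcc
mtDNA around 9461 (chrM:9441-9481): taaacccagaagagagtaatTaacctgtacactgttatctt
Gm28438 (chr1:24613097-24613137): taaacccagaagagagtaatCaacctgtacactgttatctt
mtDNA, A run in mt-Tr (chrM:9801-9848): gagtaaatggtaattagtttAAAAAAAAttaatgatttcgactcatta
chromosome 1, A run (chr1:24612729-24612777): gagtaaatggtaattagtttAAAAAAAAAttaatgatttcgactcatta
Both T9461C and the length of this A run are known to vary among the mtDNAs of laboratory mouse strains. The reference is that of C57BL/6J, and the mtDNA sequence of the NIH/3T3 cells was not analysed here.

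Because the differences are so few, most of the stretch was the same in both places. Of the 4505 positions that a piece of 150 bp can take inside it, 93.5% held no difference, and the share was still 86.4% for pieces of 300 bp and 79.2% for pieces of 500 bp. The longest run without a difference measured 3067 bp, from Gm28438 to Gm29216. The recognition sites of the 4 enzymes, counted on the reference (MseI TTAA, DdeI CTNAG, AluI AGCT and MboI GATC, each the same on both strands), divided the stretch into 77 pieces between neighbouring sites, of which 2 held a difference. The cut sites were not all the same in both places. At T9461C, mtDNA reads TTAA, an MseI site, and chromosome 1 reads TCAA. There were 78 sites in the stretch against a median of 86 in 41195 other windows of the same length on chromosome 1, and 20.2% of those windows had fewer. At least 1 site of each enzyme was found in 100% of the windows for DdeI and in 99.9976% for each of the others. The GC content of the stretch was 36.4%, against a median of 40.7% in the windows.

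One library stood apart by its labels. In the list of WT RNase R- replicate 1, the names of all 3885 peaks refer to replicate 2, although 0 of them were identical in position, fold and p to a peak of replicate 2. Results that use this list were recomputed without it. The lists held between 5996 and 32031 peaks in KO and between 271 and 3885 in WT. They hold no read counts. The totals of uniquely mapped reads stated by the study, which are higher for KO than for WT without RNase R, were used to scale summit heights as an added alternative. The background level, the expected level shared by the largest number of peaks in a list, was 0.843 to 0.924 fragments per base in KO and 0.425 to 0.558 in WT.

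All 4 KO lists and both WT RNase R- lists held 1 peak that ran across all 7 member genes. With RNase R, the WT lists held short peaks only. In KO RNase R- replicate 1 the peak ran from 24611537 to 24616193, and in the other KO lists from 24611537 to 24616191. In both WT RNase R- lists it ran from 24611563 to 24616158. The KO peaks thus began 2 bp inside the mtDNA-like stretch and ended 3 or 5 bp beyond its other end, while the WT RNase R- peaks began 28 bp and ended 30 bp inside it. The peak edges in these 6 lists thus lay within 30 bp of the ends of the homology to mtDNA. At the lower end they also lay at enzyme sites. The KO peaks began in an AluI site (AGCT) across the junction, and the WT RNase R- peaks next to an MseI site (TTAA). At the upper end, the sequence shown has no site at the peak edges. The part of the cut sites in these edges was not tested. The chromosome 1 sequence across both ends is shown on the plus strand, with the mtDNA-like part in capitals.
lower end (chr1:24611495-24611574): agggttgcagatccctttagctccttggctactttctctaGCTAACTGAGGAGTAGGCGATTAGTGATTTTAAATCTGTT
upper end (chr1:24616149-24616228): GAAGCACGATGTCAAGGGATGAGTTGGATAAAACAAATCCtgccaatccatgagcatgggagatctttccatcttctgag

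**Figure D1:**
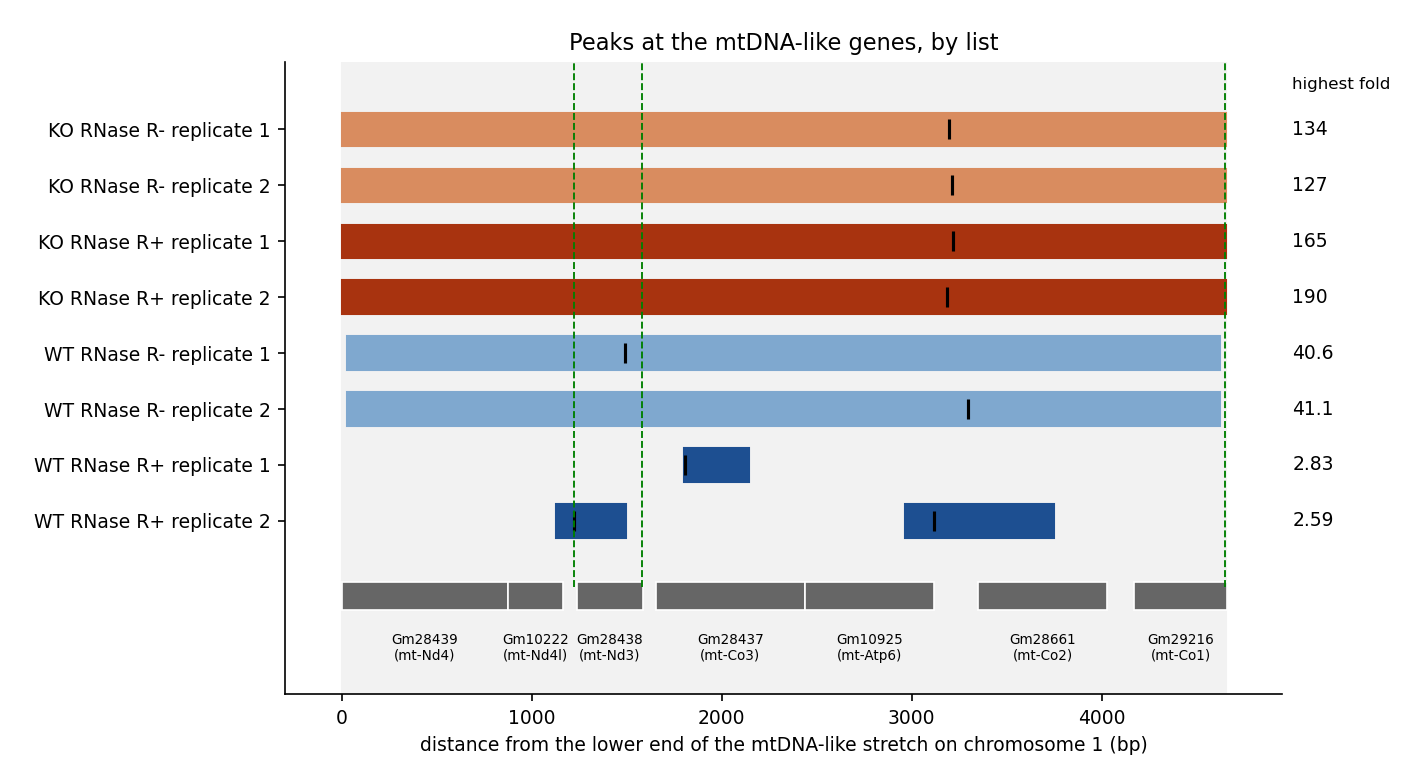
Peaks at the 7 mtDNA-like genes in each of the 8 lists. The x axis is the distance in bp from the lower end of the mtDNA-like stretch (shaded), bars are peaks, black ticks are summits, dashed green lines mark the 3 differences from mtDNA, grey blocks are the genes with their mitochondrial counterparts, and the highest fold enrichment of each list stands at the right. The 4 KO lists and the 2 WT RNase R- lists have 1 peak across all genes, while the WT RNase R+ lists have 1 and 2 short peaks.

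Without RNase R, the covered length was close to the full stretch in both genotypes. The peaks covered 4657 and 4655 bp in the KO RNase R- replicates and 4596 bp in each WT RNase R- replicate. The mean difference was 60 bp (pooled SD 1 bp, n = 2 per group). It was larger than the spread between replicates, with p = 0.333 in a two-sided exact permutation test, which is the smallest p that 2 libraries against 2 allow. In KO RNase R+, the covered length was 4655 bp in both replicates, within 1 bp of the mean without RNase R. In WT RNase R+, replicate 1 had 1 peak of 343 bp, within Gm28437, and replicate 2 had peaks of 367 and 784 bp, so that 7.37% and 24.7% of the mtDNA-like stretch was covered.

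Every member gene was overlapped by a peak in the 4 KO lists and in both WT RNase R- lists. This count was 7 of 7 genes, against 15.6% and 17.9% of all annotated genes in the 2 KO lists without RNase R, 5.4% and 4.86% in those with RNase R, and 2.79% and 1.77% in the WT RNase R- lists. In WT RNase R+, 1 of 7 genes was overlapped in replicate 1, where the share over all genes was 0.209%, and 4 of 7 in replicate 2, where it was 0.267%. The genes overlapped in replicate 2 were Gm10222, Gm28438, Gm10925 and Gm28661, none of which had a peak in replicate 1. The mean over the KO lists was 2.25 genes above that of the WT lists. These 7 genes share peaks and are not independent of each other.

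Most member genes were not only touched but covered. In the KO lists, all 7 genes were covered over at least 95% of their length, while the share of all genes covered in this way was 0.271% and 0.307% in the RNase R- replicates and 0.281% and 0.28% in the RNase R+ replicates. In the WT RNase R- lists, 6 of 7 genes passed this limit, against 0.191% and 0.155% of all genes, and Gm29216, at the end of the stretch, was covered over 92.1%. In the WT RNase R+ lists, 0 of 7 genes passed it, against 0.0252% and 0.0307% of all genes. The best covered members there were Gm28437 in replicate 1, over 43.8% of its length, and Gm28438 in replicate 2, over 73.9%.

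The run of 3067 bp that is identical in both places lay wholly inside peaks in the 4 KO lists. In both WT RNase R- lists 3041 bp of it were covered, or 99.2%. In the WT RNase R+ lists, 343 bp and 784 bp were covered. Peaks were therefore called on chromosome 1 over sequence that the reference mtDNA shares base for base, and from which copy those fragments came cannot be told apart in these lists. The authors state that reads without a unique position were removed. A read pair that lies wholly inside this run has no unique position in the reference. All 4 KO summits, between 24614722 and 24614752, lay inside the run. How the filter acted on these reads was not tested, so heights at the locus and on mtDNA cannot be taken as separately assigned.

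The fold enrichment, the height of a peak over its expected level with 1 fragment added to each, did not overlap between KO and WT without RNase R. In KO RNase R-, the fold at the locus was 134 in replicate 1 and 127 in replicate 2. In WT RNase R-, it was 40.6 and 41.1. The KO values were both above the WT values, with means of 130 ± 4.62 and 40.9 ± 0.332 (SD, n = 2). This is a log2 KO/WT ratio of fold enrichment of 1.67, or 3.19-fold, with p = 0.333 by the exact permutation test, two-sided, the smallest p possible. The locus was chosen on lists of the same KO line, so this test is not independent of that choice. Without WT RNase R- replicate 1, the log2 ratio was 1.67, and without replicate 2 it was 1.68. Summit heights scaled by mapped reads, given with the heights, had the opposite direction.

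With RNase R, the fold at the locus was higher in KO and lower in WT than without it. In KO RNase R+, the list pair on which the locus was chosen, it was 165 and 190, above both values without RNase R. The mean was 178 ± 17.4 (SD, n = 2), and the log2 ratio of RNase R+ over RNase R- was 0.44. In WT RNase R+, the fold was 2.83 in replicate 1 and 2.59 in replicate 2, with a mean of 2.71 ± 0.165 (SD, n = 2). This was 15.1-fold below WT RNase R-, with p = 0.333 by the exact permutation test, two-sided, the smallest p possible. In KO, the difference of the summit heights was smaller than that of the folds: the log2 ratio was 0.22 for the recovered summit heights and 0.16 for heights over the background level of each list.

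The summit height, the number of fragments over the summit base, was recovered from the deposited fold and p. At the locus it was 4158 and 4193 fragments in KO RNase R-, and 4682 and 5086 in KO RNase R+. In WT RNase R-, it was 1205 and 1225 fragments. The tallest peak of the locus in WT RNase R+ reached 64 fragments in replicate 1 and 126 in replicate 2. The 4 KO heights were thus all above the 4 WT heights. The expected level at these summits was much closer between the genotypes, at 30.1 and 32.0 fragments in KO RNase R-, 27.3 and 25.8 in KO RNase R+, and 28.7 and 28.8 in WT RNase R-. In WT RNase R+, it was 22.0 and 51.3. The expected level was high in every list, between 29.0 and 91.9 times the background level of the same list. Divided by the background level, the KO RNase R- heights were 4932 and 4680 and the WT RNase R- heights 2516 and 2505, a log2 KO/WT ratio of 0.94. Per 1000000 uniquely mapped reads of the library, they were 188 and 186 fragments in KO and 203 and 203 in WT, a log2 KO/WT ratio of -0.11 with p = 0.333 by the exact permutation test, two-sided. The direction of the genotype difference without RNase R thus turned with this scaling, and the part of library size in the fold difference was not tested. The stated read totals were higher for WT RNase R+ than for WT RNase R-. The background levels of these lists were close, at 0.425 and 0.558 with RNase R and 0.479 and 0.489 without. Read totals and background levels thus scale the WT lists differently, and which is nearer to depth was not tested. With RNase R, the heights per 1000000 uniquely mapped reads were 234 and 255 fragments in KO and 3.62 and 4.81 in WT, so these lists differed in the same direction as by fold.

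Within the lists, the rank of the locus depended on the measure. Ranked by fold, its peak took ranks 6 and 7 in the KO RNase R- lists and ranks 5 and 4 in the KO RNase R+ lists. In the WT RNase R- lists it took ranks 16 and 13. In WT RNase R+, the peak of replicate 1 took rank 270 of 271, and those of replicate 2 ranks 350 and 351 of 352. By summit height, it took ranks 8 and 6 in KO RNase R-, 26 and 23 in KO RNase R+, 18 and 17 in WT RNase R-, 39 in WT RNase R+ replicate 1, and 38 and 35 in replicate 2. By width, the locus was among the 5 widest peaks of each KO and WT RNase R- list.

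The summits of the KO peaks fell close together. All 4 lay between 24614722 and 24614752, within 31 bp, in a part of the mt-Atp8 counterpart where no gene is annotated on chromosome 1. The bases between the first and the last summit are shown in capitals, on the minus strand, and the whole sequence shown was identical to mtDNA.
KO summits (chr1:24614702-24614772): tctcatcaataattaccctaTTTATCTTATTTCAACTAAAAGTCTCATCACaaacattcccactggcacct
The WT RNase R- summits lay at 24613027, in Gm28438, in replicate 1 and at 24614830, in the counterpart of the transfer RNA gene mt-Tk, in replicate 2.

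On the mitochondrial genome itself, the peaks of the KO lists covered all 16299 bp in 1 peak each. The peak of WT RNase R- replicate 1 did so too, and that of replicate 2 covered 16264 bp. These peaks overlapped all 13 protein-coding genes (mt-Nd1, mt-Nd2, mt-Co1, mt-Co2, mt-Atp8, mt-Atp6, mt-Co3, mt-Nd3, mt-Nd4l, mt-Nd4, mt-Nd5, mt-Nd6 and mt-Cytb), both ribosomal RNA genes (mt-Rnr1 and mt-Rnr2) and all 22 transfer RNA genes. In WT RNase R+, peaks covered 3218 bp in replicate 1 and 3509 bp in replicate 2, about 20% of mtDNA at 19.7% and 21.5%. The KO minus WT difference in covered length was 6476.5 bp as the mean over both treatments (pooled SD 104 bp), with p = 0.167 by an exact permutation test within treatments, two-sided. Nearly all of it came from RNase R+. Mean covered lengths were 16299 bp in KO and 16281.5 bp in WT without RNase R, and 16299 and 3363.5 bp with it.

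**Figure D2:**
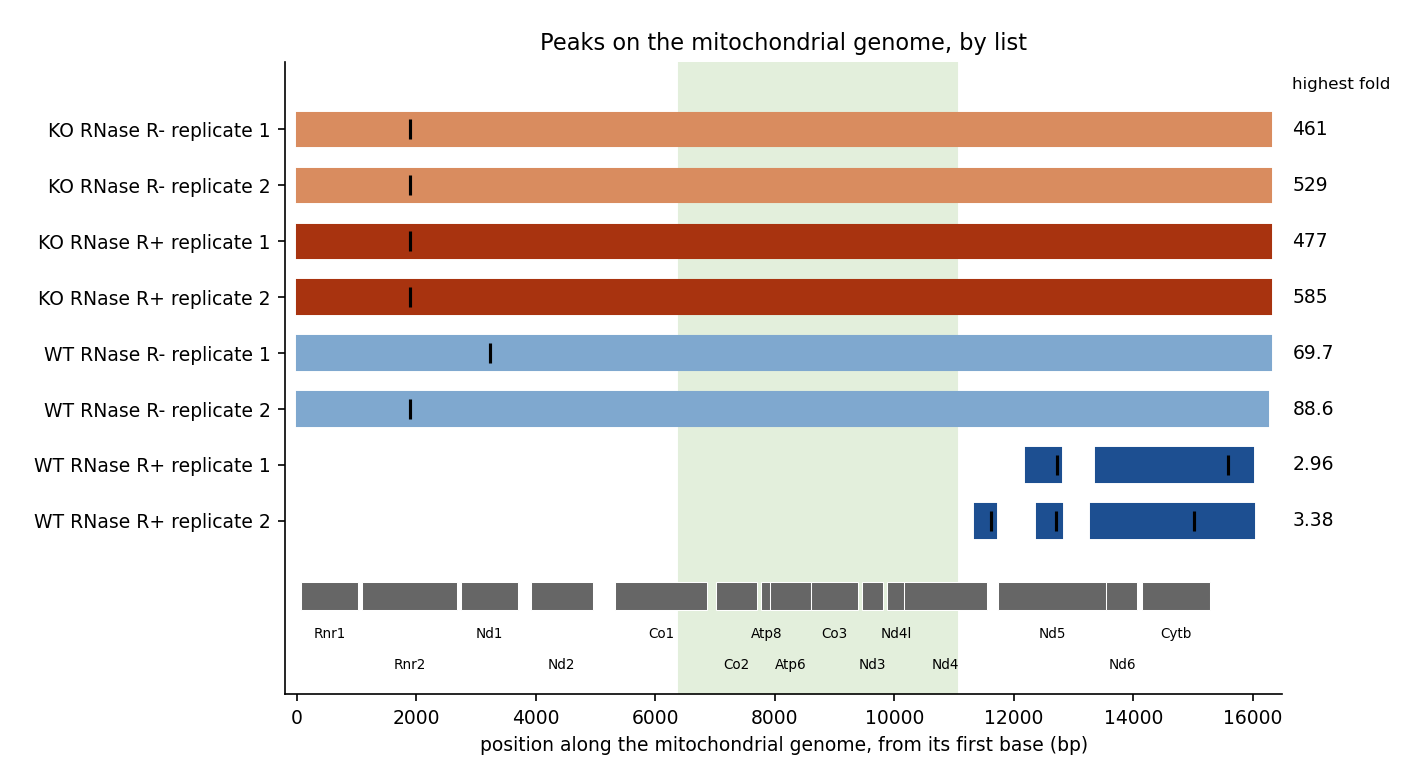
Peaks on the mitochondrial genome in each of the 8 lists. The x axis is the position in bp from the first base of the reference, bars are peaks, black ticks are summits, grey blocks are the protein-coding and ribosomal RNA genes, the green band is the segment copied to chromosome 1, and the highest fold enrichment of each list stands at the right. The WT RNase R+ peaks lie outside the green band, while the peaks of the other 6 lists span it.

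What was left in WT RNase R+ lay at different genes in the 2 places. On mtDNA, the peaks fell in mt-Nd5, mt-Nd6 and mt-Cytb and reached into the control region in both replicates, and in replicate 2 also into the end of mt-Nd4. They covered all of mt-Nd6, a subunit gene of NADH dehydrogenase encoded on the strand opposite to the other protein-coding genes, and all of mt-Cytb, which encodes cytochrome b. None of them reached the segment that is copied on chromosome 1, of which 0 bp were covered in either replicate. On chromosome 1, by contrast, 343 and 1151 bp of the copy were covered in the same lists. The folds were low in both places, at most 2.96 and 3.38 on mtDNA against 2.83 and 2.59 on chromosome 1.

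The fold on mtDNA was above that of the locus in every list. It was 461 and 529 in KO RNase R- and 477 and 585 in KO RNase R+. In WT RNase R-, it was 69.7 and 88.6. In log2, the KO/WT ratio over both treatments was 5.02 (pooled SD 0.19), with p = 0.0556 by an exact permutation test within treatments, two-sided, the smallest p that the design allows. With recovered summit heights this ratio was 3.96, with heights over the background level 3.09, and with heights per uniquely mapped read 3.07. The 2 treatments differed widely here, and with RNase R the ratio of the mean folds was 167-fold. Without RNase R alone, the ratio of the means was 6.25-fold, against 3.19-fold at the locus. By summit height it was 4.31-fold against 3.44-fold, and over the background level 2.39-fold against 1.91-fold. Per 1000000 uniquely mapped reads, the mtDNA heights were 464 and 540 in KO and 419 and 449 in WT. This difference between the 2 places was not tested. With RNase R, the KO folds on mtDNA overlapped those without, and the log2 ratio was 0.10 (p = 0.667, exact permutation test, two-sided), while in WT RNase R+ the fold was 24.9-fold below that of WT RNase R- (p = 0.333, exact permutation test, two-sided). In log2, this WT ratio was -4.64 by fold, -3.58 by summit height, -3.59 over the background level and -5.42 per uniquely mapped read. Scaled to 1000000 uniquely mapped reads, the mtDNA heights with RNase R were 580 and 652 in KO and 10.4 and 9.89 in WT. Both KO values were above those without RNase R, at a log2 ratio of 0.30.

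Set side by side within a list, the mtDNA peak had 2.89 to 4.16 times the fold of the locus in the 4 KO lists. In log2, the mean ratio of the locus to mtDNA was -1.75 (SD 0.23 over 4 lists). In WT, mtDNA had 1.72 and 2.16 times the fold of the locus without RNase R and 1.05 and 1.30 times with it. The heights were in a narrower range of ratios. The tallest mtDNA summit was 2.46, 2.90, 2.48 and 2.56 times as high as that of the locus in the KO lists, 2.07 and 2.22 times in WT RNase R-, and 2.86 and 2.06 times in WT RNase R+. Taken at the tallest summit of each place, heights on mtDNA and at the locus were thus in a ratio between 2.06 and 2.90 in all 8 lists. The heights themselves ranged from 64 to 5086 fragments at the locus and from 183 to 13023 on mtDNA. The tallest mtDNA summits of WT RNase R+ belonged to peaks of fold 1.63 and 1.40, not to those of the highest fold. The mtDNA peaks of highest fold there had heights of 124 and 150 fragments. At the locus, the peaks of highest fold in these lists had heights of 64 and 110 fragments. In WT RNase R+, the expected level at the tallest mtDNA summits was itself 112 and 185 fragments, while in the other 6 lists it was between 21.2 and 34.7.

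**Figure D3:**
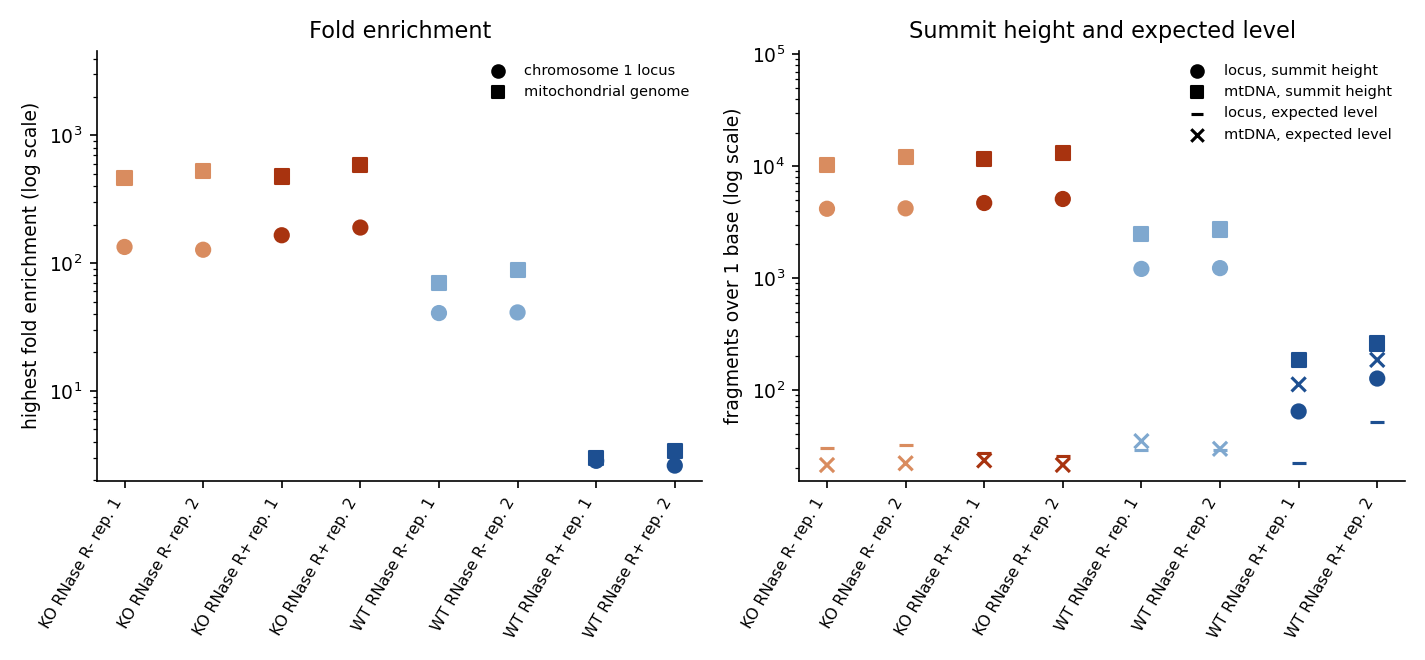
Highest fold enrichment (left) and the height of the tallest summit with the level expected there (right) at the chromosome 1 locus and on mtDNA, 1 point per list and both y axes on a log scale. Summit heights at the locus run from 64 to 5086 fragments, and in the KO and WT RNase R- lists the expected levels stay between 21.2 and 34.7 fragments in both places.

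The summits on mtDNA lay away from the copied segment. All 4 KO summits fell on position 1892, in mt-Rnr2, the gene of the large ribosomal RNA, and that of WT RNase R- replicate 2 lay on position 1891. The sequence around it is shown with the summit base of the KO lists in capitals.
mtDNA, KO summit (chrM:1862-1922): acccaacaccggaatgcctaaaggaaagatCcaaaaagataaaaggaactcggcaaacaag
The summit of WT RNase R- replicate 1 lay at position 3224, in mt-Nd1.

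Other nuclear copies of mtDNA were searched by aligning the mitochondrial reference to the assembled nuclear chromosomes. Apart from the locus, 104 copies were found, and 5 of them had a peak in any list. Of the copies with at least 500 bp and 90% identity, 4 remained beside the locus, and 1 of them had peaks. This copy, at chr2:22587288-22590534 within Myo3a and with the pseudogenes Gm13341, Gm13340 and Gm13339, had 97.4% identity over 3260 aligned positions. Its fold was 70.5 and 59.6 in KO RNase R-, 68.6 and 77.2 in KO RNase R+, and 15.5 and 16.1 in WT RNase R-, and it had no peak in WT RNase R+. Unlike the chromosome 1 locus, it was covered in short pieces, with a tallest summit of 112 to 171 fragments in KO and 25 and 23 in WT RNase R-. The large copy at chr4:80002330-80005200 (93.0% identity) had no peak in any list, nor had those on chromosomes 11 and 13.

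A shorter copy at chr12:97061428-97061792 was singled out after its values were seen. It matched 365 bp of the control region of mtDNA with 99.7% identity. Its fold was 102 and 115 in KO RNase R- and 106 and 112 in KO RNase R+, and it had no peak in any WT list. The peaks at this copy were 244 to 250 bp wide with summits of 633 to 798 fragments. The other 3 copies with peaks, on chromosomes 6, 9 and 10, reached a fold of 9.46 at most, and some of their peaks were in WT RNase R- lists. Copies with a peak had a median identity of 97.4% (n = 5), and copies without had 79.1% (n = 99), as a description. The ranges overlapped, at 88.5 to 99.7% with a peak and 67.3 to 100% without.

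**Figure D4:**
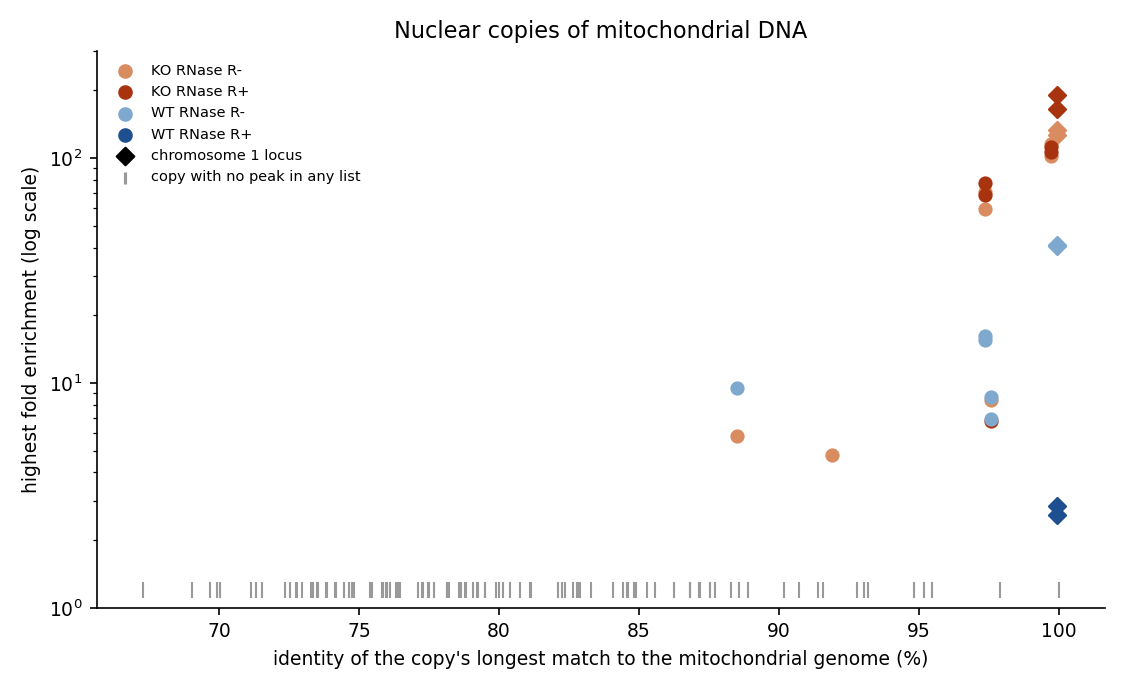
Identity of each nuclear copy to mtDNA (x axis, %) against the highest fold enrichment of its peaks in each list (y axis, log scale), with diamonds for the chromosome 1 locus and grey ticks near the x axis for copies with no peak in any list. The folds at the top of the plot belong to the locus and to the copies on chromosomes 2 and 12 in KO lists, and the 2 lowest points are the locus in WT RNase R+.

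By its pattern of folds over the 8 lists, the locus was closest to Lars2, Gphn and Cdk8, with Euclidean distances in log2 fold of 2.61, 2.80 and 3.11. A list without a peak was counted as no enrichment, so the WT RNase R+ lists made up part of each distance. These genes encode the mitochondrial leucyl-tRNA synthetase, the scaffold protein gephyrin and a kinase of the Mediator complex. Each of them had a peak in 6 lists and none in WT RNase R+. Their KO folds ranged from 204 to 268 in Lars2, from 80.7 to 90.4 in Gphn and from 165 to 185 in Cdk8. In WT RNase R-, the fold of Lars2 was 23.6 and 29.2, that of Gphn 48.9 and 74.2, and that of Cdk8 122 and 125. Peaks of low fold in WT RNase R+ were thus found at the locus and not at these genes, as a description over 8 lists. They lay over different member genes in each replicate, and mtDNA also had peaks of low fold in the same lists.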

How the data were processed

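Of 16 samples, the 8 immunoprecipitates were analysed. By their account, the authors trimmed the paired reads and aligned them to GRCm38 (mm10) with Bowtie2. With SAMtools 1.1 they removed duplicates, unmapped reads, reads above a set number of mismatches and reads without a unique position. MACS2 was run on single replicates at a q limit of 0.001. The control library is not stated. The deposited lists give a fold ratio at the summit, (height + 1) / (expected level + 1), and −log10 p and q. The deposited score was not used. The lists hold no depth, so heights were also divided by the uniquely mapped reads that the study states for each library. Whether those totals include duplicates is not stated. No spike-in scaling was applied here.

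Summit height and expected level were recovered as the whole number that fits fold and p under a Poisson distribution, for all peaks but 1 of 77297, and this was tested on simulated data. Genes were from GENCODE M21. Copies were found with BLAST+ 2.17.0 (E value at most 1e-20) and the stretch aligned with Biopython 1.88. No peak passed a chromosome end of the reference. The window was the span of the member genes extended to whole kb.

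Members, lists of genes and comparisons were chosen with earlier results of these data known. Named genes were the 7 members, the mitochondrial genes, the 3 genes nearest in fold pattern, and other nuclear copies of at least 500 bp and 90% identity, those over 1 kb by position. Comparisons used two-sided exact permutation tests over 6 arrangements of 4 libraries, or over 36 within treatments. Replicate numbers come from the titles and were not shown to pair samples. Alternatives were stricter limits on q and fold, other rules of overlap, other summaries of fold and leaving out each replicate.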

Additional observations from a re-analysis of the deposited data

Results flagged for a closer look

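The fold at the locus was higher with RNase R than without in both KO replicates (log2 ratio 0.44) and lower in both WT replicates (log2 ratio -3.91), so the direction was opposite in the 2 genotypes. The difference of the 2 ratios was 4.36 on the log2 scale. This difference was not tested, since the KO RNase R+ lists chose the locus. On mtDNA the ratios were 0.10 in KO and -4.64 in WT, a difference of 4.73, but the KO folds with and without RNase R overlapped. Groups of 2 libraries are too small for a test of outliers.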

How the results depend on the processing

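Of 128 recomputed values for 11 comparisons, 119 were counted as unchanged. They kept their direction and side of the threshold or, where there was no test, moved by no more than the spread between replicates. For tested comparisons, values with 1 library left out had no p and were checked for direction only. A further 4 moved by more in the same direction, and 5 changed sign. When a peak counted only if its summit lay in a member gene, the KO minus WT difference in covered length without RNase R became -2298 bp and that in member genes with a peak became -2, since all 4 KO summits lie between 2 member genes. That rule gave no log2 fold for KO. With a fold of at least 10, the gene difference was 3.5. With recovered summit heights, the log2 ratio of RNase R+ over RNase R- at the locus in KO was 0.22 (0.16 over the background level), and the locus over mtDNA in KO was -1.38. With heights per uniquely mapped read, the log2 KO/WT ratio at the locus without RNase R was -0.11, while RNase R in WT gave -5.60 at the locus and -5.42 on mtDNA. Over the background level, RNase R in WT gave -3.77 at the locus and -3.59 on mtDNA. These heights, and the RNase R comparisons in WT and on mtDNA, were added after seeing the data. A fold of at least 10 left no peak in WT RNase R+ at the locus or on mtDNA, and a −log10 q of at least 10 left none at the locus in replicate 1, so those ratios had no value.

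Leaving out 1 library at a time gave 59 to 61 bp for the covered length at the locus without RNase R, 6403.75 to 6549.25 bp on mtDNA, and -2 to 0 bp for RNase R in KO. The log2 fold ranged from 1.64 to 1.71 for KO/WT at the locus, 4.93 to 5.10 on mtDNA, 0.34 to 0.54 for RNase R in KO, -3.98 to -3.85 for RNase R in WT, -1.82 to -1.65 for the locus over mtDNA, and -4.81 to -4.46 for RNase R on mtDNA in WT. For RNase R on mtDNA in KO it ranged from -0.050 to 0.24 and changed sign without KO RNase R- replicate 1 or KO RNase R+ replicate 2. The difference in genes with a peak ranged from 1.5 to 3. It was 1.5 without WT RNase R+ replicate 1.

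Blocked by replicate number, the values were unchanged (log2 1.67 at the locus, p = 0.5, and 5.02 on mtDNA, p = 0.125, exact sign-flip test, the smallest p possible). Over regions called in all 4 lists, the differences between replicates 1 and 2 correlated at 0.05 (318 regions) between KO and WT RNase R-, and at -0.31 (70 regions) between WT RNase R- and RNase R+. Crossing the numbers there changed 0 calls. These exact permutation and sign-flip designs are too small to pass the threshold, so stability of a call could not be judged.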
